A study of Mus musculus with 2 samples.

Results

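CC chemokines are small secreted proteins, and 10 of their genes (Ccl2, Ccl3, Ccl4, Ccl5, Ccl6, Ccl8, Ccl9, Ccl12, Ccl22 and Ccl24), taken by name, are described here out of 13774 genes in the count table. The data are 2 single-cell 3' RNA libraries of mouse tissue, 1 per group. The NEC library comes from normal mammary gland, and the TEC library from tumors of EO771, a mouse mammary tumor line, grown for about 3 weeks in the mammary fat pad. Both groups are labelled as female C57BL6/J mice, 8 weeks old, with the alleles Cdh5Cre-ERT2:ZSGreenl/s/l; tamoxifen switched on ZSGreen, a green fluorescent protein, through the endothelial Cdh5 promoter. Live ZSGreen+ cells were sorted from both, and 1 protocol, with EO771 injection, is given for both groups, so the controls may share it. The number of animals behind each library is not given in the sources used here.

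CC chemokines bind G-protein-coupled receptors on leukocytes and draw these cells into tissue. Ccl2, Ccl12 and their neighbour Ccl7 act on the monocyte receptor Ccr2, Ccl8 of the mouse acts on Ccr8, and Ccl3, Ccl4 and Ccl5 are inflammatory ligands that draw monocytes and T cells. Ccl6 and Ccl9 are rodent ligands of Ccr1, Ccl22 draws Ccr4-bearing T cells, and Ccl24 draws eosinophils through Ccr3. In mammary tumors of mice, Ccl2 is best known for the recruitment of monocytes that become macrophages.

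The counts used here carry the label "negs" and may cover only a part of the sorted cells. Shares of a library below are shares of the cells counted here. Although the labels name both libraries endothelial, cells gated on endothelial markers numbered 3 of 1801 kept cells in NEC and 5 of 1000 in TEC. Cells were instead assigned to marker gates built without any CC chemokine, and the names below carry "-like" in that sense. Macrophage-like cells numbered 289 in NEC and 587 in TEC, T or NK-like cells 632 and 57, B or plasma-like cells 580 and 3, mature dendritic-like cells (Ccr7, Fscn1) 22 and 41, and fibroblast-like cells 74 and 5. A further 197 TEC cells were gated on Rhox5, a homeobox gene, and 4 genes that accompany it, hold 55.97% of the TEC UMIs (unique molecules counted) and are called Rhox5-positive. All 14 macrophage markers had counts in the macrophage-like cells of both libraries, 14203 CPM (a gene's share of the summed UMIs of a group of cells, on a common scale) in NEC and 16946 CPM in TEC. The median depth of these cells was 3169 UMIs in NEC and 7535 in TEC, no TEC cell had fewer than 6376 UMIs, and 2 cell barcodes were shared between the libraries. With 1 library per group no difference has a replicate check, no test was possible, and every interval is a 95% interval for counting error only.

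Of the 10 genes, 8 lie on chromosome 11, in 2 groups. On the GRCm38 build (mm10) Ccl2 spans 82035571 to 82037453, Ccl12 82101845 to 82103400 and Ccl8 82115185 to 82116799, all on the + strand, with Ccl7 and Ccl11 between Ccl2 and Ccl12. The second group begins 1408978 bases further on, with Ccl5 at 83525778 to 83530518, Ccl9 at 83572919 to 83578636, Ccl6 at 83587882 to 83593087 and Ccl3 at 83647844 to 83649355 on the - strand, and Ccl4 at 83662584 to 83664683 on the + strand. Ccl24 is on chromosome 5 (135569937 to 135573049, - strand) and Ccl22 on chromosome 8 (94745590 to 94751699, + strand). All 10 are protein-coding. Gm17268 overlaps Ccl2 and E230016K23Rik overlaps Ccl6 on the opposite strand; whether counting used strand is not given in the sources used here, so reads of these partners cannot be told apart from the chemokines' own.

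RefSeq's promoter table on GRCm38.p6 matched 6 of the 10 genes, and the 250 bases before the start site are shown for 2 pairs of neighbours with contrasting behaviour. Ccl12 and Ccl8, 11784 bases apart, had 24 and 5 UMIs in NEC macrophage-like cells and were higher in TEC ones. Ccl6 and Ccl9, 9245 bases apart, had most of their UMIs in macrophage-like cells of both libraries, and their proportions differed between the libraries. In the first pair, capitals mark the letters TATAAA, searched on both strands. In the second pair, capitals mark runs of at least 8 bases that the 2 promoters share. The sequences run 5′ to 3′ on each gene's strand: Ccl12 at chr11:82101595-82101844 (+), Ccl8 at chr11:82114935-82115184 (+), Ccl6 at chr11:83593088-83593337 (-) and Ccl9 at chr11:83578637-83578886 (-).
Ccl12: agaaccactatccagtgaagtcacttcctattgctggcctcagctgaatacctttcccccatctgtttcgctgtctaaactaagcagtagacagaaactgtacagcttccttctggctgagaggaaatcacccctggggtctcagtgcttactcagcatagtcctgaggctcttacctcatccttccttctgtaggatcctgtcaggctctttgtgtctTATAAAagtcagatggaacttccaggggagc
Ccl8: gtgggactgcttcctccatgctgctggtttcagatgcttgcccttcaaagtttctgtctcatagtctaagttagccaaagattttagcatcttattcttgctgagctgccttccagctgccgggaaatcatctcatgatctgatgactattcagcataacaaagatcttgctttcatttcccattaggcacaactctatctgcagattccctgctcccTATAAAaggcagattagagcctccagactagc
Ccl6: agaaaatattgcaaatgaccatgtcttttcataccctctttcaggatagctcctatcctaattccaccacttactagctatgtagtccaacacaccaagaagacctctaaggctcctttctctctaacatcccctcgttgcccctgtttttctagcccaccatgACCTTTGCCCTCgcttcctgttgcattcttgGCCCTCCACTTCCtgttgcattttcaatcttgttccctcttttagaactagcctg
Ccl9: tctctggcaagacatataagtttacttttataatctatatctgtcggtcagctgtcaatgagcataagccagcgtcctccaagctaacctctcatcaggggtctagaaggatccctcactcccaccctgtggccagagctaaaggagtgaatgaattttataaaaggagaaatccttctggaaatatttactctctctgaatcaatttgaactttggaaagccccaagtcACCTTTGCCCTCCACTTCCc

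The TATAAA match began 31 bases before the start of Ccl12 and 32 bases before that of Ccl8, and Ccl9 also held matches; 3 of the 6 promoters held the letters, against 12.31% of 32536 mouse promoters of the same length. A run of 13 bases was the longest shared by Ccl6 and Ccl9, against 6 to 10 bases in the other 14 pairs of the 6 promoters. The core of the interferon-stimulated response element (2.98% of all promoters), searched on both strands, was not found in these windows. Ccl9 alone of the 6 held the AP-1 motif TGANTCA (6.73% of all) and the NF-kappaB consensus (7.28% of all). A match is a description of letters and not evidence of binding.

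The gate with the most UMIs was the same in both libraries for 6 of the 10 genes and differed for Ccl2, Ccl4, Ccl5 and Ccl8. For Ccl4 it was B or plasma-like cells in NEC (33 of 94 UMIs) and macrophage-like cells in TEC. Ccl3 is among the 6 by a near tie, with 8 of 27 NEC UMIs in macrophage-like and 7 in B or plasma-like cells. Macrophage-like cells held more UMIs than any other gate for 5 of the 10 genes in NEC and for 7 in TEC. Fewer cells of a type and less RNA per cell cannot be told apart in these library shares, which also follow the 587 macrophage-like and 197 Rhox5-positive cells of TEC.

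**Figure D1:**
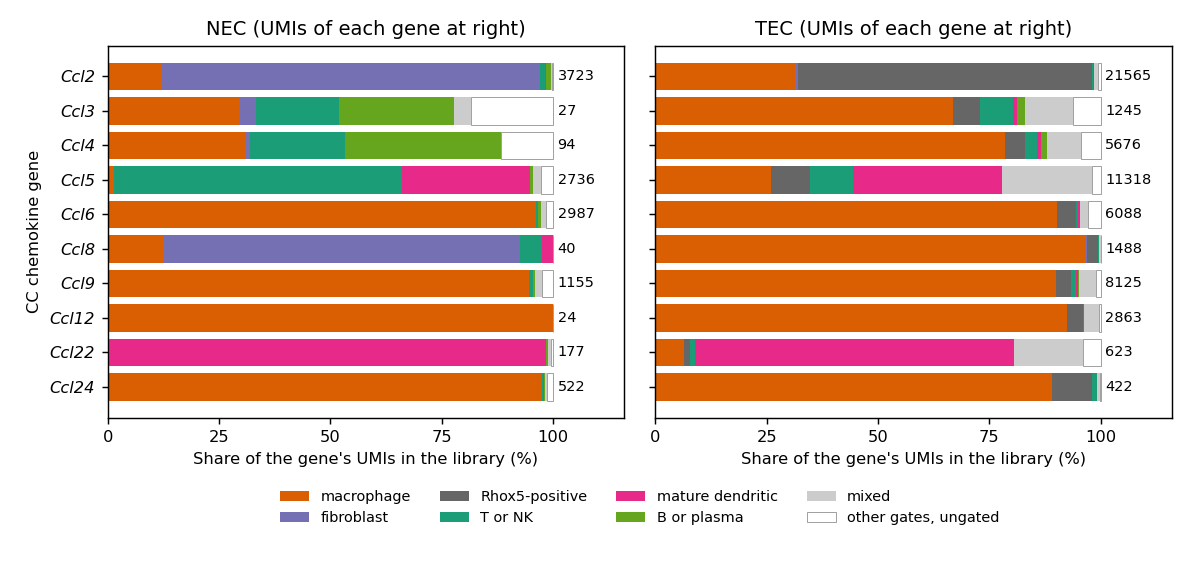
Share of each gene's UMIs, in percent of its total in the library, that fell in each marker gate, for NEC (left) and TEC (right), with the gene's total at the right of each bar. Ccl2 and Ccl8 belonged to fibroblast-like cells in NEC (85.0% and 80%), while in TEC Ccl8 belonged to macrophage-like cells (96.6%) and Ccl2 to Rhox5-positive and macrophage-like cells.

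Among the ligands of monocyte receptors, Ccl2 had its highest level in fibroblast-like cells of the normal gland. These held 3165 of the 3723 NEC UMIs (85.0%, 83.8 to 86.1), at 13636 CPM (13165 to 14119), and 55 of the 74 cells had at least 1 UMI. The richest of them had 224 UMIs of Ccl2 among 6769 UMIs in all, and 10 cells reached 50% of the gate's Ccl2. NEC macrophage-like cells stood at 399.6 CPM and B or plasma-like cells, which should lack the gene, at 36.9 CPM. Detection followed the same order, with a Ccl2 UMI in 74.3% of fibroblast-like, 44.98% of macrophage-like and 7.41% of B or plasma-like cells, whose median depths were 2720, 3169 and 1775 UMIs.

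In TEC, Ccl2 came from both large gates. Rhox5-positive cells held 14227 of 21565 UMIs (65.97%, 65.3 to 66.6) at 1546 CPM, and macrophage-like cells 6749 UMIs (31.3%) at 1362 CPM. Both levels lay far below the 13636 CPM of the NEC fibroblast-like cells, and the 5 fibroblast-like cells of TEC, at 4180 CPM, held 153 UMIs, 80 of them in 1 cell. Rhox5-positive cells were deep (median 40701 UMIs), so their share with a Ccl2 UMI, 95.4%, dropped to 47.7% when each cell was thinned to 1000 UMIs, beside 44.0% of the macrophage-like cells thinned alike. Among the 197 cells, 21 reached 50% of the gate's Ccl2.

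The level in Rhox5-positive cells set Ccl2 apart from ligands that appear there as a low trace. Ccl2 stood at 113.5% of its macrophage level (110.2 to 116.8). Ccl3, Ccl4, Ccl6, Ccl8, Ccl9, Ccl12 and Ccl24 stood at 1.42% to 5.44% of theirs, beside the macrophage genes Lyz2 (1.69%), Cd68 (3.34%) and C1qa (0.848%). Ccl3 (4.92%, 3.8 to 6.2) and Ccl24 (5.44%) stood above all of these macrophage genes, and 1 cell held 27 of the 38 Ccl24 UMIs. Ccl5 lay between at 18.25% (17.0 to 19.6), with 8 cells holding 50% of its UMIs there and 1 of them 11.5%. Ccl22 had 8 UMIs there, too few for a comparison.

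Ccl7, a Ccr2 ligand whose gene lies 8258 bases beyond Ccl2, had the pattern most like that of Ccl2 among 2984 genes (Pearson r = 0.978 of log2(CPM + 10) over 11 gate and library sums, which share 2 libraries). It reached 3373 CPM in NEC fibroblast-like cells, 1224 CPM in TEC macrophage-like cells and 784.7 CPM in Rhox5-positive cells. The next genes in likeness to Ccl2 were Vat1 and Axl (r = 0.94 for both). Of the 172 Rhox5-positive cells with a Ccl7 UMI, 98.3% also had one of Ccl2, against 95.4% of all 197. In NEC fibroblast-like cells the shares were 81.7% of 60 and 74.3% of all 74, in TEC macrophage-like cells 88.6% of 317 and 78.9% of all 587, and in NEC macrophage-like cells 74.65% of 71 and 44.98% of all 289.

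Ccl12, which encodes a further Ccr2 ligand of the mouse, had all of its 24 NEC UMIs in 10 of the 289 macrophage-like cells. Those 24 UMIs gave 21.3 CPM (13.6 to 31.6), and 21 of them were in cells rich in C1q, the complement genes that mark tissue macrophages. In TEC it had 2647 UMIs in macrophage-like cells (92.5% of the library's), at 534.3 CPM (514.1 to 555.1), in 41.6% of those cells. At 1000 UMIs per cell the shares were 2.08% in NEC and 18.7% in TEC, and 0 of the 197 Rhox5-positive cells had one at that depth, a floor of 3 cells or 1.52%. Unthinned, 33.5% of these deep cells had a Ccl12 UMI, with 98 UMIs in all (10.65 CPM). The genes most like it were Mmp12, a macrophage elastase (r = 0.982), Fcgr4 and Slpi.

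Ccl8 was a rare message whose TEC total rested on a few cells. NEC held 40 UMIs, 32 of them in 17 of the 74 fibroblast-like cells and 5 in macrophage-like cells. TEC held 1488 UMIs, of which 1437 were in 51 of the 587 macrophage-like cells. The 5 fibroblast-like cells of TEC held 4 UMIs, all in 1 cell, at 109.3 CPM (29.8 to 279.8), beside 137.9 CPM in the NEC ones. One C1q-low cell of 6719 UMIs had 558 of Ccl8, 37.5% of the library's; the next cell had 214, and these 2 cells reached 50%. The median cell with a Ccl8 UMI had 1. Cells with a UMI made up 8.69% of TEC macrophage-like cells, or 3.07% at 1000 UMIs, beside 1.52% of Rhox5-positive cells.

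**Figure D2:**
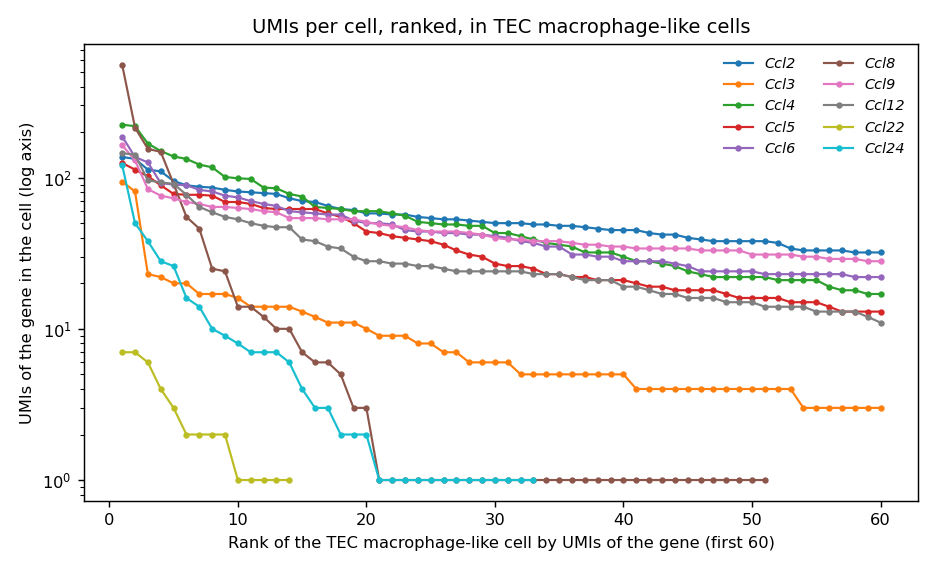
UMIs of each gene in single TEC macrophage-like cells, ranked from the richest (x axis, first 60 cells; y axis, UMIs on a log scale, 1 point per cell). Ccl8 and Ccl24 drop from 558 and 121 UMIs to 3 and 2 at the 20th cell, while Ccl9 declines slowly from 164 UMIs.

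Of the inflammatory ligands Ccl3, Ccl4 and Ccl5, the first and the second had few UMIs in the normal gland. Ccl3, which acts on Ccr1, had 27 UMIs in all of NEC, 8 of them in macrophage-like cells (7.09 CPM, 3.06 to 13.97). In TEC it had 1245 UMIs, 832 in macrophage-like cells (167.9 CPM, 156.7 to 179.8) and 91 in T or NK-like cells (135.7 CPM), levels whose intervals overlapped. One TEC macrophage-like cell held 94 of these UMIs, and the cell with the second-highest count held 81. The 11 neutrophil-like cells of TEC stood at 663.3 CPM, with the gene in 9 of them; a gate of 11 cells gives no firm level.

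Ccl4 followed the same course at higher counts. NEC held 94 UMIs, 33 in 8 B or plasma-like cells and 29 in 10 macrophage-like cells, and 1 macrophage-like cell with the non-classical monocyte genes Ace and Treml4 held 17 of those 29. TEC held 5676 UMIs, 78.4% (77.3 to 79.5) in macrophage-like cells at 898.2 CPM (872.0 to 925.0). Behind them came conventional dendritic-like cells at 704.7 CPM, with 77 of their 187 UMIs in 1 cell. Mixed cells followed at 609.1 CPM and T or NK-like cells at 238.5 CPM. Among gates under 20 cells, 11 neutrophil-like cells stood at 643.5 CPM and 3 B or plasma-like cells at 1904 CPM, with all 72 UMIs in 1 cell. The share of macrophage-like cells with a UMI was 3.46% in NEC and 53.0% in TEC, and 0.692% and 23.7% at 1000 UMIs, where 2.54% of Rhox5-positive cells had one. The gene most like it was Il1r2, the decoy receptor of interleukin-1 (r = 0.954), and the nearest to Ccl3 was Ifit2 (r = 0.929).

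Ccl5, a product of activated lymphocytes and dendritic cells, had its highest level in mature dendritic-like cells of both libraries. They stood at 7238 CPM in NEC (21 of 22 cells) and 10899 CPM in TEC (39 of 41 cells), and the richest TEC cell had 419 Ccl5 UMIs among 6731. Among gates of at least 20 cells, T or NK-like cells came next, apart from the mixed TEC cells (3221 CPM). T or NK-like cells stood at 896.2 CPM in NEC with a UMI in 132 of 632 cells, and 1649 CPM in TEC with a UMI in 40 of 57. Smaller gates above these levels were 11 mixed NEC cells (1043 CPM) and 3 plasmacytoid dendritic-like TEC cells (2216 CPM, 76 of 77 UMIs in 1 cell). By share of the library, T or NK-like cells led in NEC (64.7%), while in TEC mature dendritic-like cells held 33.4%, macrophage-like cells 25.9% and cells with markers of more than 1 class 20.2%. NEC macrophage-like cells stood at 31.9 CPM (22.3 to 44.2), beside 15.6 CPM in B or plasma-like cells, and TEC ones at 591.2 CPM (570.0 to 613.0). Sin3b had the pattern most like that of Ccl5 (r = 0.970).

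The rodent ligands Ccl6 and Ccl9 were spread broadly over macrophage-like cells. In NEC, macrophage-like cells held 96.05% of Ccl6 UMIs and 94.55% of Ccl9 UMIs, and in TEC 90.06% and 90.01%. Ccl6 stood at 2542 CPM (2450 to 2637) in NEC and 1107 CPM (1078 to 1136) in TEC, with UMIs in 88.2% and 82.3% of cells. It was not confined to them: neutrophil-like cells stood at 1038 CPM in NEC (5 of 5 cells). In TEC they stood at 1317 CPM (1102 to 1561, 10 of 11 cells), and gates this small give no firm level. Ccl9 stood at 967.5 CPM (911.0 to 1027) and 1476 CPM (1443 to 1510), with UMIs in 72.7% and 88.25% of cells. Their proportion therefore turned: 2.63 Ccl6 UMIs per Ccl9 UMI in NEC and 0.75 in TEC. At 1000 UMIs per cell, Ccl6 was seen in 73.0% of NEC and 43.3% of TEC macrophage-like cells, and Ccl9 in 51.9% and 57.9%; 3.05% and 3.55% of Rhox5-positive cells had one.

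Ccl9 was the most evenly spread of the 10 genes over TEC macrophage-like cells. It took 92 cells to reach 50% of the gate's Ccl9, 58 for Ccl2 and 54 for Ccl6, against 22 for Ccl12, 21 for both Ccl4 and Ccl5, 17 for Ccl3, 3 for both Ccl22 and Ccl24 and 2 for Ccl8. The genes with the patterns nearest to Ccl9 and Ccl6 were myeloid ones, the Fc receptor gene Fcgr3 for Ccl9 (r = 0.985) and the integrin gene Itgam for Ccl6 (r = 0.977).

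Ccl24 was a ligand of C1q-high macrophage-like cells in the normal gland. Of 522 NEC UMIs, 508 were in macrophage-like cells, and 77 of the 90 C1q-high cells had one, at 1209 CPM (1086 to 1343), against 32 of the 199 C1q-low cells at 188.3 CPM. The 35 cells with Ace and Treml4 had no UMI, which by a floor of 3 counts allows a UMI in up to 8.57% of such cells (10% by the exact interval) and does not limit the share expressing the gene. In TEC, 7 of the 95 C1q-high cells had a UMI, at 114.4 CPM (93.1 to 139.1), and 26 of 492 C1q-low cells, at 67.7 CPM. At 1000 UMIs per cell the gene was seen in 23.9% of NEC and 2.39% of TEC macrophage-like cells, beside 0.345% of NEC B or plasma-like cells and none of 197 Rhox5-positive ones. One TEC cell held 121 of the 422 UMIs of the library (28.7%). The genes most like it were Folr2, F13a1 and Saa3 (r = 0.97 to 0.99), the first a marker of resident macrophages.

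Ccl22 belonged to mature dendritic-like cells. They held 173 of 177 NEC UMIs (97.7%, 94.3 to 99.4) at 1597 CPM (1368 to 1854), and 445 of 623 TEC UMIs (71.4%, 67.7 to 74.95) at 1282 CPM (1165 to 1407). The gene was seen in 19 of 22 and in 34 of 41 of these cells. In NEC, 2 of these dendritic-like cells reached 50% of the gate's UMIs and the richest had 52, and in TEC it took 8, the richest with 61. Mixed cells held 97 TEC UMIs (15.57%), and macrophage-like cells 1 UMI in NEC and 40 in TEC. Sema7a and Il12b, the latter a cytokine of activated dendritic cells, had the nearest patterns (r = 0.98 for both).

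**Figure D3:**
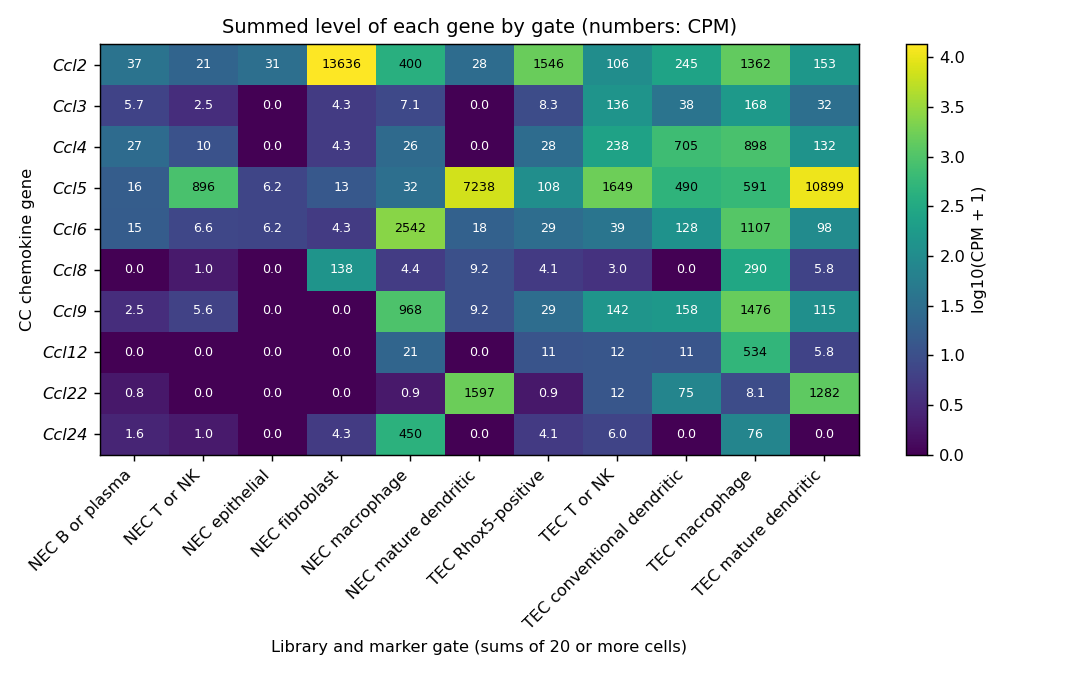
Summed level of each gene (rows) in each library and gate of at least 20 cells (columns), with mixed cells and cells without a gate left out. Numbers are CPM and the color is log10(CPM + 1). Ccl2 peaks in NEC fibroblast-like cells at 13636 CPM, Ccl5 and Ccl22 in mature dendritic-like cells, and Ccl6, Ccl9, Ccl12 and Ccl24 in macrophage-like cells.

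Within macrophage-like cells, Ccl2, Ccl3, Ccl4, Ccl5, Ccl8 and Ccl12 were higher in TEC, and Ccl6 and Ccl24 were lower. A gene was called by size when its TEC over NEC ratio of CPM was at least 2 in either direction, its interval excluded 1 and both sums together held at least 50 UMIs. By that rule 6 of the 9 genes with enough UMIs were higher, beside 22.8% of all 6575 genes with enough UMIs, and 2 were lower, beside 6.6%; Ccl22 had too few. The median log2 ratio was 4.21 over the 9 genes and 0.36 over all genes with UMIs in both libraries. TMM scaling, which lowered every log2 ratio by 0.23, gave 1030 genes higher (15.67%) and 637 lower (9.69%) over all genes in place of 1502 and 434, and again 6 and 2 of these 9.

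**Figure D4:**
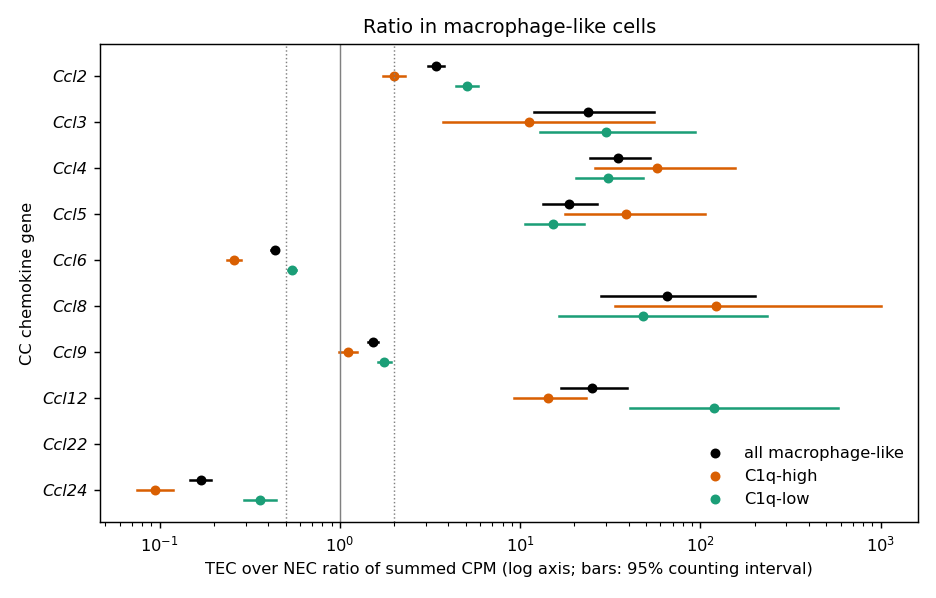
TEC over NEC ratio of summed CPM (log axis) for each gene in all macrophage-like cells and in the C1q-high and C1q-low ones, with 95% counting intervals; the solid line is 1 and the dotted lines are a ratio of 2 in each direction. Ccl22 had too few UMIs to be drawn, Ccl6 and Ccl24 lie below 1 and the other genes above it.

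The higher genes differed in size and in firmness. Ccl2 was 3.41-fold higher (3.10 to 3.76), from 399.6 to 1362 CPM. Ccl12 was 25.1-fold higher (16.9 to 39.3) and Ccl3 23.7-fold (11.97 to 55.1), from 24 and 8 NEC UMIs. Ccl12 came to 42.5-fold and Ccl8 to 104.7-fold among cells of at least 4000 UMIs. Gates were set anew for that filter, with 112 NEC and 568 TEC macrophage-like cells, so depth and gating cannot be told apart in its values. Ccl8 was 65.5-fold higher (28.0 to 202), and 66.3-fold without the richest cell of each library, from 3 NEC UMIs. Ccl4 was 35.0-fold higher (24.3 to 52.3), but 79.3-fold without the richest cell of each library (1 cell held 17 of the 29 NEC UMIs). It was 80.1-fold without cells holding a Cd3 UMI, 70.45-fold by the mean over cells and 22.9-fold among cells of at least 4000 UMIs.

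Ccl5 was 18.5-fold higher (13.4 to 26.5). T or NK markers (12 of 14 in the table, 11 with counts in each library) summed to 186.1 CPM in the NEC and 301.2 CPM in the TEC macrophage-like cells, and 9 and 58 of these cells held a Cd3 UMI. Without those cells the ratio was 13.6 (9.75 to 19.6). It was 12.2 among cells of at least 4000 UMIs and 39.1 for a gate on Csf1r. Ccl9, at 1.53-fold (1.43 to 1.63), did not reach the size rule.

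The 2 lower genes were Ccl24, at a ratio of 0.169 (0.147 to 0.193), and Ccl6, at 0.435 (0.416 to 0.456). C1q-high cells made up 31.1% of NEC and 16.2% of TEC macrophage-like cells, so each class was also compared on its own. Among C1q-high cells Ccl24 was at 0.0946 (0.0750 to 0.118), or 10.6-fold lower, and among C1q-low cells at 0.359 (0.294 to 0.440). Without the richest cell of each library its ratio over all macrophage-like cells was 0.1205. Ccl6 was at 0.258 (0.236 to 0.282) among C1q-high cells and 0.542 (0.513 to 0.573) among C1q-low cells, the latter short of the size rule.

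Markers of resident macrophages moved with Ccl24. Their 7 genes summed to 1682 CPM in NEC and 258.5 CPM in TEC C1q-high cells, where Lyve1, Cd163, Cd209d and Timd4 were at 0, and 5 classical monocyte markers summed to 231.4 CPM in NEC, with Chil3 at 0, and 2155 CPM in TEC. C1q itself was similar, 8232 and 7340 CPM. The part of these markers in the lower Ccl24 was not tested.

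The higher genes were higher in both classes. Of the 9 genes with enough UMIs, 6 were higher and 2 lower among C1q-high cells, beside 32.8% and 9.97% of 2609 genes, and 6 were higher and 1 lower among C1q-low cells, beside 22.4% and 5.38% of 5983 genes. Ccl2 was 2.001-fold higher (1.74 to 2.31) among C1q-high cells, at the edge of the rule, and 5.07-fold (4.43 to 5.84) among C1q-low cells. The NEC level was the main contrast, 811.8 CPM in C1q-high and 257.4 CPM in C1q-low cells, while in TEC they stood at 1625 and 1306 CPM. In TEC, Ccl12 (1036 against 426.7 CPM), Ccl4 (1184 against 837.0 CPM) and Ccl5 (805.4 against 545.3 CPM) were higher in C1q-high than in C1q-low cells, and Ccl3 was lower (115.5 against 179.2 CPM). In the C1q-high class 4 cells held 50% of Ccl12, 4 of Ccl4 and 5 of Ccl5. Ccl8 stood at 840.9 and 172.1 CPM, but 79.5% of the C1q-low UMIs were in 1 cell, and 2 cells reached 50% in the C1q-high class.

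In T or NK-like cells the TEC values rested on few cells. Ccl2, Ccl3, Ccl4 and Ccl9 met the size rule there as higher in TEC, 4 of 5 genes with enough UMIs beside 23.2% of 4325 genes, and none was lower beside 13.4%. With TMM scaling 13.29% of all genes were higher and 21.5% lower, and the counts for these 5 were again 4 and 0. TEC levels were 105.8 CPM for Ccl2, 135.7 for Ccl3, 238.5 for Ccl4 and 141.6 for Ccl9, and 1 cell held 53.5%, 39.6%, 29.4% and 45.3% of the UMIs in that order. Without the richest cell Ccl2 was 2.55-fold higher in place of 5.10-fold (3.42 to 7.68). Ccl3 was 53.6-fold higher (22.1 to 169), Ccl4 23.55-fold (14.75 to 39.6) and Ccl9 25.4-fold (13.6 to 52.7), from 5, 20 and 11 NEC UMIs. Among cells of at least 4000 UMIs they came to 94.0-fold, 85.3-fold and 124.1-fold, of which the value for Ccl3 lay inside its interval. Gates were set anew for that filter, with 130 NEC and 63 TEC T or NK-like cells. The 14 macrophage markers summed to 124.0 CPM in NEC (11 with counts) and 1149 CPM in TEC (all 14) in these cells, and their part in the result was not tested. Ccl5, which T and NK cells make, was at 1.84 (1.70 to 1.98), short of the rule. Its ratio was 2.56 among cells of at least 4000 UMIs, but 1.415 with TMM scaling and 1.738 without the richest cell of each library.

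In mature dendritic-like cells, Ccl5 was at a ratio of 1.51 (1.39 to 1.63) and Ccl22 at 0.803 (0.672 to 0.962), so neither met the rule. Ccl2 was 5.51-fold higher (1.79 to 27.6), 1 of 3 genes with enough UMIs beside 16.7% of 1081 genes, and none was lower beside 6.48%; it came from 3 NEC UMIs and 53 TEC UMIs, 24 of them in 1 cell. Macrophage markers summed to 803.2 CPM in NEC (7 of 14 with counts) and 2301 CPM in TEC (all 14) in this gate, and their part in the result was not tested.

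Most TEC macrophage-like cells carried several of these ligands. The median was 4 of the 10 genes per cell when each cell was thinned to 6000 UMIs, and Ccl9 (86.9%), Ccl6 (78.4%) and Ccl2 (74.1%) were each in more than 70% of the cells. Co-detection was read as the number of cells with both genes over the number if the genes were unrelated, for 45 pairs, with no test. For most pairs it lay near 1, with a median of 1.06 for the 13 pairs within a chromosome 11 group, 1.06 for the 15 pairs between the 2 groups and 0.812 for the 17 pairs with Ccl22 or Ccl24, which few cells had (0 to 3.905). The counting interval lay above 1 for 3 pairs: Ccl3 with Ccl4, in 105 cells against 74.9 (1.402, 1.17 to 1.66), Ccl4 with Ccl12, in 137 against 104 (1.32, 1.13 to 1.52), and Ccl2 with Ccl12, in 205 against 161.6 (1.27, 1.13 to 1.41). Co-detection intervals, here and below, treat the number of cells with both genes as a plain share of all cells. They do not hold each gene's own count fixed, so they cannot tell which pairs are related. Split by C1q class, Ccl4 with Ccl12 was in 26 C1q-high cells against 26.4 (0.985) and in 111 C1q-low cells against 78.9 (1.41). Ccl3 with Ccl4 and Ccl2 with Ccl12 stood above 1 in both classes. Of the 218 cells with Ccl12, 94.0% also had Ccl2. Genes found in most cells, such as Ccl9, Ccl6 and Ccl2, leave their pairs little room above 1 whatever the relation. Ratios this close to 1 are a description and no finding.

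The pairs were also counted among cells rich in a ligand. Counting cells with at least 10 UMIs after thinning, a level chosen after the single-UMI pairs had been seen, 38.2% of the 587 cells were rich in none of the 10, 29.8% in 1 and 18.2% in 2 of them. Cells rich in Ccl9 numbered 187, in Ccl2 147, in Ccl6 121, in Ccl4 72, in Ccl5 56 and in Ccl12 52. Of 14 pairs with at least 5 cells predicted if unrelated, 9 stood above 1. Ccl2 with Ccl12 stood highest at 2.69 times that number (35 cells), followed by Ccl6 with Ccl9 at 1.998 (77 cells) and Ccl4 with Ccl12 at 1.88 (12 cells). Ccl4 with Ccl6 stood lowest at 0.47 (7 cells against 14.8), and Ccl5 with Ccl6 at 0.52 (6 against 11.5). Ccl3 was rich in 11 cells, 8 of them also rich in Ccl4; the richest Ccl3 cell had 94 UMIs of Ccl3 and 219 of Ccl4, and none of Ccl2, Ccl6 or Ccl9.

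**Figure D5:**
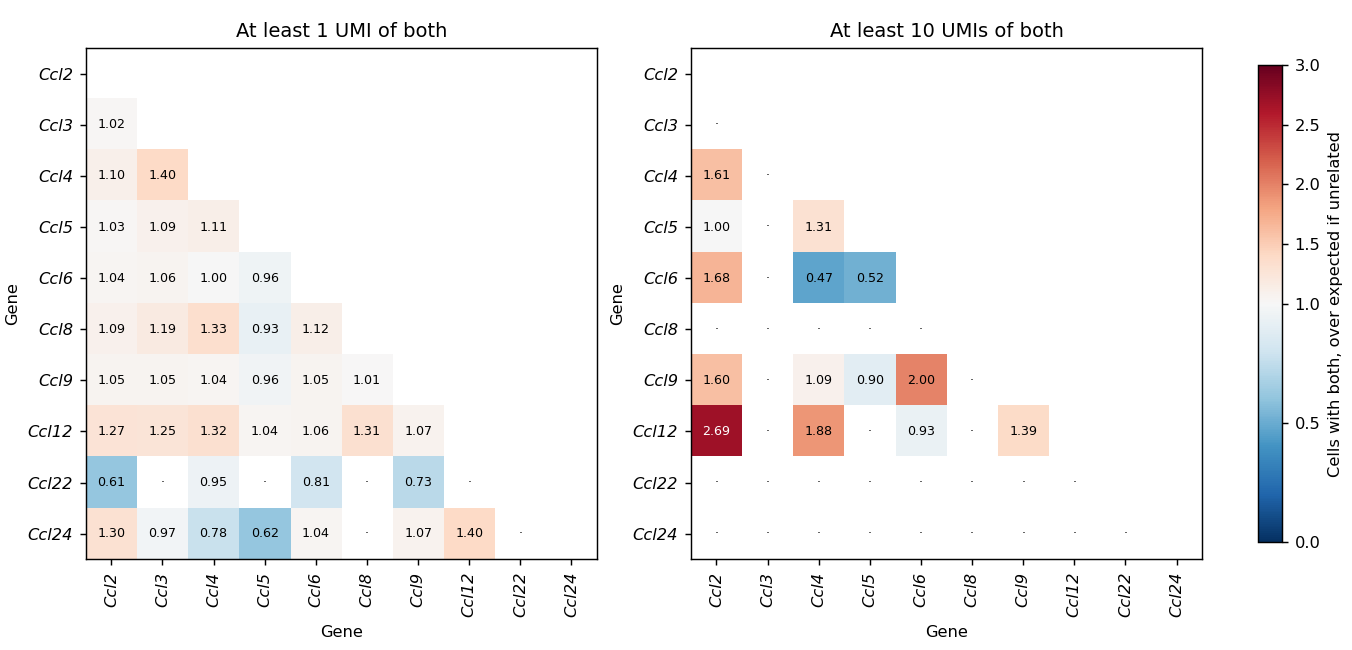
TEC macrophage-like cells with both genes of a pair, divided by the number if the genes were unrelated, after thinning to 6000 UMIs, for at least 1 UMI (left) and at least 10 UMIs (right) of both; a dot marks pairs with fewer than 5 cells predicted. Most pairs are near 1 on the left, where genes found in most cells leave little room above 1. On the right Ccl2 with Ccl12 reaches 2.69 and Ccl4 with Ccl6 falls to 0.47.

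In the normal gland Ccl6 with Ccl9 was again a common pair, in 198 of the 289 macrophage-like cells, and Ccl24 joined it. The median C1q-high cell of NEC had 4 of the 10 genes, and 75 of the 90 cells had both Ccl6 and Ccl24, against 74.4 if unrelated. Ccl6 was in 87 and Ccl24 in 77 of these 90 cells, so the overlap was nearly fixed. It cannot show whether the 2 genes are related. Among the 199 C1q-low cells, 30 of the 32 with Ccl24 also had Ccl9, against 21.55 if unrelated (1.39, 0.961 to 1.92). These cells were not thinned. With all 289 macrophage-like cells thinned to 1000 UMIs, Ccl9 with Ccl24 stood at 1.508 (1.159 to 1.91), Ccl2 with Ccl24 at 1.644 (1.135 to 2.28) and Ccl6 with Ccl9 at 1.178 (1.024 to 1.335); this set joins the C1q-high and C1q-low cells, whose Ccl24 levels differ.

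Receptors for several of these ligands had their highest level in the same TEC macrophage-like cells. Ccr1 stood at 232.3 CPM (415 of 587 cells with a UMI) and Ccr2 at 169.6 CPM (343 cells). Both were the first in order among gates of at least 20 cells, with mixed cells and cells without a gate left out. For Ccr2 the interval overlapped that of NEC macrophage-like cells (140 CPM, 119 to 163.6). By the size rule 4 of the 5 CC receptor genes with enough UMIs were higher in TEC macrophage-like cells and none was lower, beside 22.8% and 6.6% of all genes; Ccrl2, which binds chemokines without signaling in the usual way, was 4.14-fold higher (3.11 to 5.64) and Ccr1 2.55-fold (2.08 to 3.15). Ccr4, the Ccl22 receptor, had 6 UMIs in the 57 TEC T or NK-like cells, its highest gate at 8.94 CPM. Ccr8, the receptor of mouse Ccl8, peaked at 5.57 CPM in NEC T or NK-like cells, and Ccr3 was not analysed here.

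Other genes around the pathway moved in mixed ways in macrophage-like cells. Of 10 further CC chemokines 6 were in the table and 2 had enough UMIs: Ccl7 was 4.29-fold higher (3.84 to 4.82), and Ccl17, a dendritic-cell ligand of Ccr4, was at 0.101 (0.0757 to 0.134), with all 167 NEC UMIs in 4 of the 289 cells. Of 8 chemokines of other classes with enough UMIs 5 were higher and 1 lower, among them Cxcl3 (8.56-fold), Cxcl10 (6.62-fold), Ppbp (at least 9.87-fold, 0 UMIs in NEC set to 3) and Cxcl1 (4.01-fold lower). Of 14 NF-kappaB feedback and early cytokine genes 3 were higher and 2 lower, and the 3 are close to the 22.8% of all genes called higher. Il1b was 15.4-fold, Nfkbie 4.07-fold and Bcl2a1b 3.12-fold higher, and Nfkb1 and Il6 were at 0.372 and 0.467. Bcl2a1b has near-identical copies, so its counts are uncertain. All 12 interferon response genes were higher, with Ifit3 118.4-fold, Ifit2 at least 47.5-fold and Irf7 29.3-fold; these lists were chosen with earlier results of these data known, and the last is no independent evidence.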

How the data were processed

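Per the labels, the libraries were made with the 10x Genomics single cell 3' kit. STAR 2.5.1b and Cell Ranger 2.0.2 are listed, with Seurat, in the submitters' processing notes, which give mm10 as the build. The deposited table holds whole-number UMI counts per gene and cell, with no normalization. Cells named "control" were taken as NEC, on the word alone, and those named "tumor" as TEC. Totals were 5228289 UMIs in 1806 NEC cells and 16444540 in 1000 TEC cells. A cell was used if it had 500 genes, 1000 UMIs and no more than 10% of its UMIs from mitochondrial genes; 5 NEC cells failed.

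Each of 11 cell classes was scored from its markers, each scaled to its 90% quantile. A cell needed 2 markers, and a second class at 70% of the best score made it mixed; no doublet caller was run, and 11 NEC and 64 TEC cells were mixed. C1q-high cells had at least 20 C1q UMIs per 10000, with 14 NEC and 50 TEC cells within 2-fold of that value. Gate scoring was settled after the data had been seen, and the genes and lists were chosen with earlier results of these data known. All 10 genes are named, and from each list up to 3 genes per direction with the interval bound farthest from 1; likeness used genes reaching 100 CPM. Some genes that these rules name are not reported here.

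UMIs were summed per gate and library, with exact Poisson intervals for CPM and Clopper-Pearson intervals for shares and ratios. A sum of 0 was set to 3 counts per sum for a bound. Simulated counts served to check the size rule. Alternatives were other cell filters and gates, leaving out the richest cell, mean CPM over cells, TMM scaling from edgeR 4.0.16 (R 4.3.3) and thinning. Python 3.11.15, numpy 2.4.6, pandas 2.3.3, scipy 1.17.1 and matplotlib 3.10.9 were used. Gene positions are from GENCODE M21 (GRCm38).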

Additional observations from a re-analysis of the deposited data

How the results depend on the processing

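In macrophage-like cells the number of the 10 genes higher in TEC was 6 or 7 and the number lower was 2 under 8 other settings, and none changed direction. Macrophage-like cells led in 4 to 6 of the genes in NEC and in 7 in TEC under 5 other settings; the NEC values for Ccl3 and Ccl4 rest on 27 and 94 UMIs. TMM scaling shifted log2 ratios by -0.23 in macrophage-like and -0.38 in T or NK-like cells. It moved the calls over all genes from 1502 higher and 434 lower to 1030 and 637, and from 1002 and 579 to 575 and 930, while the counts for the 10 genes stayed at 6 and 2, and at 4 and 0. Of 20 shares of macrophage-like cells with a UMI, 19 moved outside their interval when cells were thinned to 1000 UMIs. Requiring 10 UMIs of both genes, chosen after seeing the data, moved 11 of 14 co-detection values. No paired analysis was possible because there is 1 library per group and no difference was tested.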
